A study of Arabidopsis thaliana with 12 samples.

Results

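The nuclear genes of photosynthetic electron transport are the 40 genes for the nuclear-encoded subunits of photosystem (PS) I, PSII, the cytochrome *b6f* complex and the plastid ATP synthase, for plastocyanin, ferredoxin and ferredoxin-NADP reductase (FNR), and for the cyclic electron flow proteins PGR5 and PGRL1. They were listed by gene identifier and not by a cut on any measured value, although earlier results of these data were known. Genes of the light-harvesting antenna are not among them. They are 40 of 40215 gene models in the transcript table, 37282 of which are nuclear. RNA was measured in 12 libraries of 4-day-old *Arabidopsis*, 3 each of *gun1-102* mutants with white cotyledons (*gun1W*), with marbled ones (*gun1M*) and with green ones (*gun1G*), and of the wild type Col-0. *gun1-102* is 1 transfer DNA insertion allele of *GUN1*, a plastid pentatricopeptide repeat protein, in the Col-0 background, so *gun1W*, *gun1M* and *gun1G* share 1 genotype and were told apart by the color of their cotyledons. All plants grew on medium with 1% sucrose in cycles of 16 h light and 8 h dark. The labels call the material cotyledon, whereas the study's text speaks of seedlings. Levels are in scaled TPM (length-corrected shares of a library, put on a common scale by the median nuclear gene). Summed levels of 5 root marker genes were 65.7 to 135 over the 12 libraries, so root transcripts were present, 4 seed markers summed to 1.81 to 23.1 and 2 shoot meristem markers to 0.431 to 1.42, and 3 genes of photosynthetic cells (*RBCS1A*, *CA1* and *RCA*) summed to 15120 to 17994 in *gun1W*, 23598 to 33846 in *gun1M*, 29074 to 36394 in *gun1G* and 23010.4 to 25254 in Col-0.

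Electron transport starts at PSII, where the oxygen-evolving complex splits water. Electrons pass through plastoquinone and cytochrome *b6f* to the copper protein plastocyanin, are raised again by PSI, and reach ferredoxin and, through FNR, NADPH. The ATP synthase uses the proton gradient built on the way, and PGR5 with PGRL1 returns electrons from ferredoxin to plastoquinone. Each large complex mixes subunits made in the plastid with subunits encoded in the nucleus, and many of the nuclear ones have a paralogue. Nuclear photosynthesis genes are known targets of retrograde signals from plastids that fail to develop, the process in which GUN1 acts.

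Promoters of the *PSBQ* and *PSAH* pairs are shown because the share of *PSBQ1* in its pair moved most of all pairs, and that of *PSAH1* lay above Col-0 in white plants and below it in green ones (values with the paralogue shares). Each line holds the 250 bases before the annotated gene start, from RefSeq (TAIR10.1), 5′ to 3′ on the strand of the gene. Capitals mark a G-box, CACGTG. They also mark an I-box core, GATAAG, on either strand. The third kind of capitals is CCAATC on either strand.
PSBQ1 promoter (chr4:11334102-11334351, plus strand): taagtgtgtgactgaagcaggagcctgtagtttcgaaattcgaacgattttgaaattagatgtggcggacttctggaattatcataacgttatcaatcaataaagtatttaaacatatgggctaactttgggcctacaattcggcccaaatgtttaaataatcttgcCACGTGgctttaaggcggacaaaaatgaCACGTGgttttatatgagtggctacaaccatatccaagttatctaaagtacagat
PSBQ2 promoter (chr4:2673244-2673493, minus strand): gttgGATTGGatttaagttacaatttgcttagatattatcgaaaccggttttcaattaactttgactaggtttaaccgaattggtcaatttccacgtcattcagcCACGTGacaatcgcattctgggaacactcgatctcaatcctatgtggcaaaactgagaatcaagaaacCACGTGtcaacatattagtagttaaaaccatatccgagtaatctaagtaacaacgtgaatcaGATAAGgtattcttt
PSAH1 promoter (chr3:5469595-5469844, minus strand): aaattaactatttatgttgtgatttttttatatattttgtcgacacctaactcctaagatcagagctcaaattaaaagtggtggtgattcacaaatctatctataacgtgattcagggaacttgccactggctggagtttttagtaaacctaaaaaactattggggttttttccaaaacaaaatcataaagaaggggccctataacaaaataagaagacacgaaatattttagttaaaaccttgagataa
PSAH2 promoter (chr1:19454548-19454797, plus strand): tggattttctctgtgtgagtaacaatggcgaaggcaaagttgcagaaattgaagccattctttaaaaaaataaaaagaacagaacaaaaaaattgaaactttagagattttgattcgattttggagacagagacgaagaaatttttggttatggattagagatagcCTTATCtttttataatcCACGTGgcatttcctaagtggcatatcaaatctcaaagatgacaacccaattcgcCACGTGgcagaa
*PSBQ1* had a pair of G-boxes, which began 83 and 55 bases before the start, and *PSBQ2* had a pair at 145 and 77 bases with an I-box core at 15 bases and CCAATC at 246 bases. In *PSAH2* the G-boxes lay at 67 and 12 bases and an I-box core at 84 bases, whereas *PSAH1* had none of these letters before its start. Both strands were searched for 5 motifs in the 300 bases from 250 before to 50 after the start. In this longer window *PSAH1* also had 1 G-box and 1 I-box core. *PSBQ1* had 2 G-boxes, 1 I-box core and 1 CCAATC there, the same counts as *PSBQ2*. No motif searched is contained in another. The G-box was present in 14 of 40 members (35.0%), against 7.68% of 27443 promoters of protein-coding genes. The I-box core was present in 21 members (52.5%), against 14.6% of all promoters. CCAATC was found in 8 members (20.0%, against 12.3%), AGATTC in 10 members (25.0%, against 19.5%) and the evening element AAAATATCT in 1 member (2.50%, against 2.82%). These are matches of letters and were not tested as sites.

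TPM is a share of a library, corrected for transcript length, and each library sums to 1000000, so the depth and the counting error of low values are unknown. Transcripts of the plastid genome took 9.29% to 12.5% of TPM in *gun1W*, 27.7% to 34.6% in *gun1M*, 38.4% to 41.5% in *gun1G* and 34.5% to 37.8% in Col-0. Nuclear values were therefore put on a common scale by the median nuclear gene (scaled TPM). A single nuclear transcript, AT3G06365, took 4.02% to 19.5% of TPM in *gun1W*, 0.745% to 10.5% in *gun1M*, 0.219% to 4.70% in *gun1G* and 5.71% to 8.46% in Col-0. The targeted gene *GUN1* had 39.3, 33.3 and 25.7 scaled TPM in *gun1W*, 25.7, 24.5 and 36.1 in *gun1M*, 20.4, 26.9 and 29.7 in *gun1G* and 46.1, 44.0 and 46.4 in Col-0. All 9 mutant libraries lay below the Col-0 libraries. The log2 fold change was −0.48 in *gun1W*, −0.67 in *gun1M* and −0.82 in *gun1G* (limma, adjusted p = 0.09, 0.026 and 0.026). The sum over the gene model does not separate the part before the insertion from the part behind it.

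The 40 genes together took a smaller share of the nuclear transcripts in white plants than in any other group. Their summed TPM was 2.95, 3.20 and 3.65% of nuclear TPM in *gun1W*, 4.82, 4.32 and 3.93% in *gun1M*, 5.90, 5.96 and 5.34% in *gun1G* and 4.63, 4.40 and 4.71% in Col-0. All *gun1W* libraries were below all others, all *gun1G* libraries were above all others, and *gun1M* overlapped Col-0. This share does not depend on the scaling of the libraries, but its total holds the transcript AT3G06365. With AT3G06365 left out of the total, a choice made after its spread was seen, the share was 3.99, 4.03 and 3.88% in *gun1W*, 4.97, 4.40 and 4.89% in *gun1M*, 5.93, 6.18 and 6.08% in *gun1G* and 5.39, 5.54 and 5.84% in Col-0. Then *gun1W* was again below and *gun1G* above all others, and *gun1M* was below Col-0 without overlap. It cannot tell fewer green cells from less of these RNAs per cell. The sum of the photosynthetic cell markers given above was likewise lowest in *gun1W*. There *RBCS1A* and *CA1* lay below Col-0, and *RCA* overlapped it (726 to 920 against 838 to 963 scaled TPM). The part of these cells in this result was not tested.

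**Figure D1:**
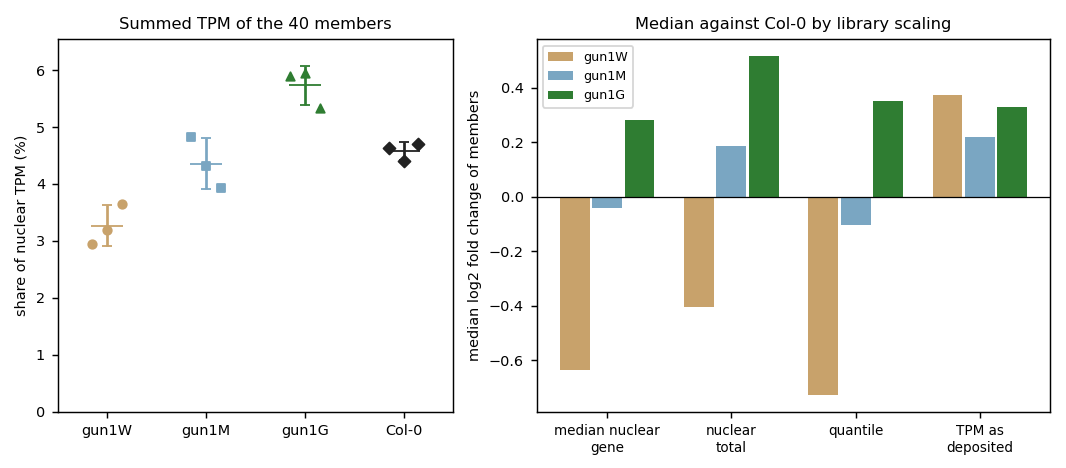
Left, summed TPM of the 40 members as a percentage of nuclear TPM, 1 point per library, with the mean and SD of 3 libraries; *gun1W* lies at 2.95% to 3.65%, below every other library. Right, the median log2 fold change of the 39 tested members against Col-0 under 4 scalings of the libraries; the *gun1W* bar is at −0.64 with the median nuclear gene as the scale and at 0.37 in TPM as deposited, while the *gun1G* bar is above 0 in all 4.

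For each gene model, log2(scaled TPM + 1) was compared between groups with limma. A gene was called where the adjusted p was under 0.05 and the change at least 2-fold. The minor paralogue *PSBP2* (0.10 to 0.75 scaled TPM) did not reach a TPM of 1 in 3 libraries, and the other 39 members were tested. In *gun1W*, 11 of the 39 were lower than in Col-0 by this rule (4.31% of 18373 tested gene models were) and 1, *PSB28*, was higher (7.54% of all). Without the fold limit, 22 were lower (12.5% of all) and 2, *PSBS* and *PSB28*, were higher (15.1% of all). In 27 members all *gun1W* libraries lay below all Col-0 libraries (21.7% of all), and in 2 they lay above (23.6% of all). The median log2 fold change was −0.64 for the members and −0.004 for all gene models. In TPM as deposited, which gives the nuclear genes of *gun1W* a larger share because plastid transcripts are scarce, the median of all gene models moved to 0.82 and that of the members to 0.37. There limma called 0 members lower and 6 higher, against 0.936% and 37.7% of all gene models, and 24 members turned from lower to higher. At an unadjusted p under 0.05, 3 were lower and 16 higher, without a count over all gene models in that unit. Still, 29 of the 39 were below the median of all gene models, and the directions given here are relative to that median. Scaled to the same nuclear total, 7 were lower and 2 higher, against 2.78% and 10.4% of all gene models. The single higher gene became 2 without *gun1W* replicate 3.

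In *gun1M*, 3 members (*PSAD1*, *PSAD2* and *PSBR*) were called lower than in Col-0 (5.34% of all gene models) and 2 (*PSBS* and *PSB28*) higher (7.64% of all). Without the fold limit, 8 were lower (13.6% of all) and 6 higher (15.4% of all). The *gun1M* libraries lay below Col-0 without overlap in 10 members (21.5% of all) and above in 9 (22.4% of all), and the median log2 fold change was −0.04. The count of lower genes was 1 without *gun1M* replicate 2 and 5 without *gun1M* replicate 3, and that of higher genes was 1 without Col-0 replicate 1 or *gun1M* replicate 2. In *gun1G*, limma called 0 members lower (1.48% of all) and 0 higher (3.09% of all) by at least 2-fold. At an unadjusted p under 0.05, 4 were lower and 16 higher, none of the 16 by 2-fold. Of all 18373 tested gene models, 2313 were lower and 2586 higher at that threshold. Without the fold limit, 6 were higher at an adjusted p under 0.05 (*PSBQ1*, *PSBS*, *PSB28*, *FD2*, *ATPC1* and *PGRL1A*, 5.75% of all) and 0 lower (3.62% of all). In 4 members all *gun1G* libraries lay below all Col-0 libraries (17.6% of all). In 18 members all *gun1G* libraries lay above all Col-0 libraries (18.8% of all), and the median log2 fold change was 0.28. The count of genes 2-fold higher in *gun1G* was 2 without Col-0 replicate 2 or *gun1G* replicate 2 and 1 without Col-0 replicate 3 or *gun1G* replicate 1 or 3, and the count of lower genes was 1 without *gun1W* replicate 1 or 3. The 3 comparisons share the Col-0 libraries.

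Relative to the median gene, the members followed cotyledon color within the mutant. The group means lay in the order *gun1W*, *gun1M*, *gun1G*, low to high, in 31 of 39 members, and this order was found in 22.3% of all tested gene models. *gun1W* had the lowest mean of the 4 groups in 32 members (23.4% of all), and *gun1G* the highest in 26 (20.1% of all). Between *gun1W* and *gun1G*, 14 members were called lower in *gun1W* (1.94% of all) and 1, *FD1*, higher (3.06% of all). Without the fold limit, 28 were lower (5.91% of all) and *FD1* was again the only higher one (7.16% of all). In 31 members all *gun1W* libraries lay below all *gun1G* libraries (16.6% of all), and in 2 above (16.9% of all). The call of *FD1* did not hold on leaving out *gun1W* replicate 1 or 2 or *gun1G* replicate 1 or 2, which left a count of 0. Between *gun1M* and *gun1G*, limma called 0 members in either direction by 2-fold (0.675% of all lower, 1.35% higher). *PSBP1* and *PSBQ2* were lower in *gun1M* without the fold limit (1.59% of all) and 0 were higher (2.56% of all). At an unadjusted p under 0.05, 16 were lower and 0 higher, against 1861 and 2133 of all 18373 tested gene models. In 15 members all *gun1M* libraries lay below all *gun1G* libraries (11.2% of all), and in 0 above (12.2% of all). Between *gun1W* and *gun1M* the counts by limma were 0 as well (0.098% of all lower, 0.0435% higher), with *PSBP1* lower without the fold limit (0.131% of all) and 0 members higher (0.0544% of all). At an unadjusted p under 0.05, 27 were lower and 1 higher, against 949 and 1026 of all 18373 tested gene models. All *gun1W* libraries lay below all *gun1M* libraries in 23 members (7.11% of all) and above them in 0 (7.16% of all). Without *gun1M* replicate 3, 4 members were called 2-fold lower in *gun1W* than in *gun1M*. In TPM as deposited, limma called 0 members lower and 3 higher in *gun1W* than in *gun1G* (0.430% and 33.6% of all), and 0 lower and 1 higher in *gun1W* than in *gun1M* (0.114% and 13.0% of all). At an unadjusted p under 0.05 these counts were 5 and 8 against *gun1G* and 0 and 10 against *gun1M*. They stand without a count over all gene models at that threshold. In that unit the median of the members was 0.22 against *gun1G* and 0.18 against *gun1M*, while the median of all gene models was 0.80 and 0.64, and 36 and 33 of the 39 members lay below it. There 22 members turned from lower to higher against *gun1G* and 25 against *gun1M*. Between *gun1M* and *gun1G* the median of the members was −0.15 in that unit and that of all gene models 0.16, with 30 members below it.

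**Figure D2:**
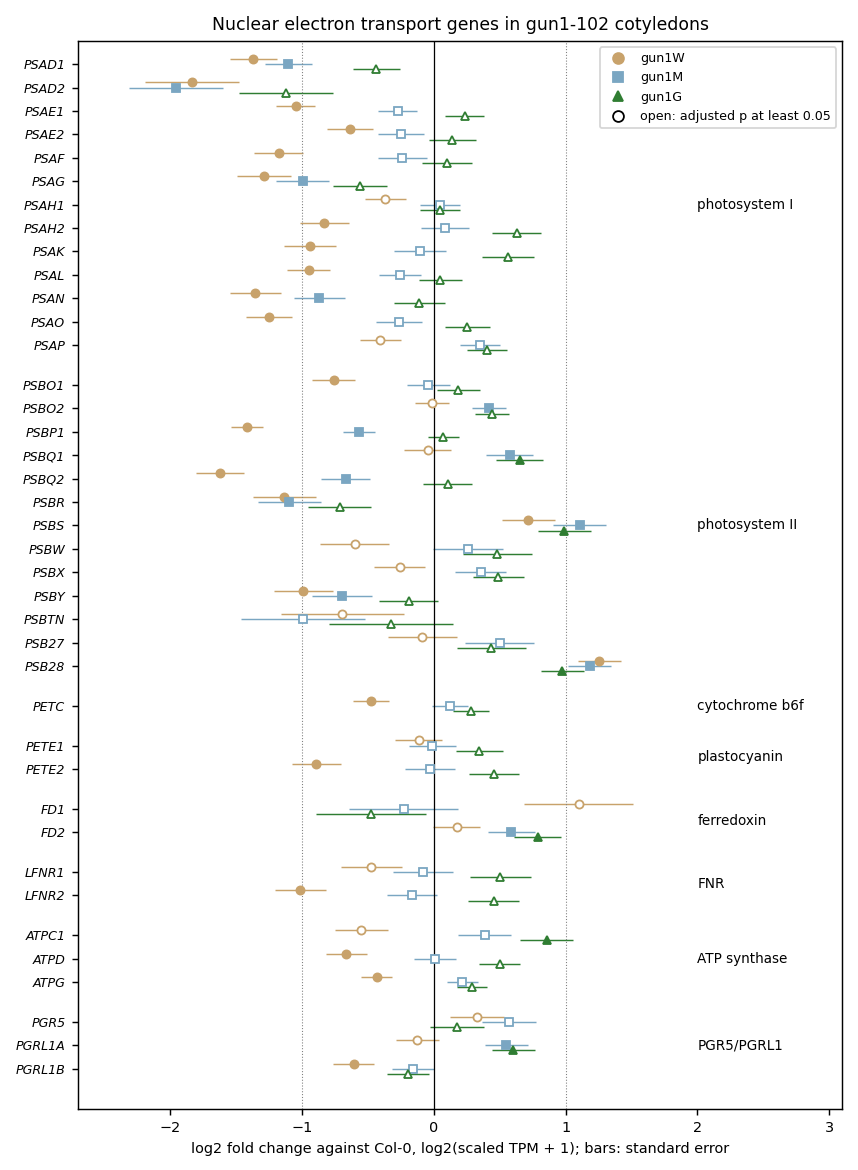
Log2 fold change of the 39 tested members against Col-0 on the scale of the median nuclear gene in *gun1W* (circles), *gun1M* (squares) and *gun1G* (triangles), with standard errors from limma and dotted lines at 2-fold. Filled symbols have an adjusted p under 0.05; in PSI all 13 *gun1W* points lie left of 0, and in PSII they run from −1.62 (*PSBQ2*) to 1.25 (*PSB28*).

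PSI genes were lower in *gun1W* than in Col-0 relative to the median gene, although 6 of the 13 were higher in TPM as deposited. On the common scale all 13 had their *gun1W* libraries below all Col-0 libraries, 7 were called lower by at least 2-fold (4.31% of all gene models), 11 passed the adjusted p (12.5% of all), and the median was −1.05. In *gun1M* the median was −0.26, with 4 lower (13.6% of all), and in *gun1G* it was 0.10, with 0 called and only *PSAD2*, at −1.12 ± 0.36 (SE, adjusted p = 0.072), past 2-fold. The stromal subunit PSAD, which docks ferredoxin, is encoded by *PSAD1* (AT4G02770) and *PSAD2*. *PSAD1* had 406, 375 and 319 scaled TPM in *gun1W*, 445, 358 and 529 in *gun1M*, 584, 755 and 768 in *gun1G* and 965, 984 and 886 in Col-0. The *gun1W* and *gun1M* libraries were all below those of *gun1G*, which were all below Col-0. The log2 fold change was −1.37 ± 0.18 (SE, adjusted p = 0.00028) in *gun1W*, −1.10 ± 0.18 (SE, adjusted p = 0.0013) in *gun1M* and −0.44 ± 0.18 (SE, adjusted p = 0.14) in *gun1G*. *PSAD2* (AT1G03130) had 197, 148 and 71.1 scaled TPM in *gun1W*, 133, 78.4 and 154 in *gun1M*, 148, 231 and 268 in *gun1G* and 399, 481 and 498 in Col-0. Every mutant library was below every Col-0 library, and the spread within *gun1W* was wide. Its log2 fold change was −1.83 ± 0.36 (SE, adjusted p = 0.0034) in *gun1W* and −1.96 ± 0.36 (SE, adjusted p = 0.0027) in *gun1M*.

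PSAE, the other stromal subunit near the ferredoxin site, is encoded mostly by *PSAE1* (AT4G28750), which had 769.6, 811 and 857 scaled TPM in *gun1W*, 1576, 1364 and 1243 in *gun1M*, 2117, 1938 and 1872 in *gun1G* and 1598, 1562 and 1889 in Col-0. The *gun1W* libraries were below all others, and the log2 fold change against Col-0 was −1.05 ± 0.15 (SE, adjusted p = 0.00049). *PSAE2* (AT2G20260) had 166, 134 and 171 scaled TPM in *gun1W*, 264, 179.6 and 179.7 in *gun1M*, 275, 268 and 260.2 in *gun1G* and 241, 215 and 276 in Col-0. *gun1W* lay below Col-0, at −0.64 ± 0.18 (SE, adjusted p = 0.019), a call that did not hold on leaving out Col-0 replicate 1 or 3 (−0.64 and −0.55) or *gun1W* replicate 2 (−0.53). PSAH is part of the site where antenna of PSII docks during state transitions. *PSAH1* (AT3G16140) had 761, 656 and 793 scaled TPM in *gun1W*, 1180.3, 949 and 834 in *gun1M*, 982, 991 and 966 in *gun1G* and 911, 951 and 982 in Col-0. *gun1W* lay below every other library, yet the difference from Col-0 was the smallest of PSI, −0.37 ± 0.15 (SE, adjusted p = 0.094), and did not pass the test. *PSAH2* (AT1G52230) had 348, 286 and 394 scaled TPM in *gun1W*, 790.01, 638 and 523 in *gun1M*, 925, 921 and 961 in *gun1G* and 523, 597 and 708 in Col-0. Its libraries were lowest in *gun1W* and highest in *gun1G*, with no overlap of either with Col-0, at −0.83 ± 0.18 (SE, adjusted p = 0.0069) in *gun1W* and 0.63 ± 0.18 (SE, adjusted p = 0.054) in *gun1G*, of which *gun1W* passed.

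Of the PSI genes without a paralogue here, *PSAO* (AT1G08380), for a subunit needed in state transitions, had 281, 291 and 357 scaled TPM in *gun1W*, 675, 676 and 501 in *gun1M*, 1036, 838 and 773 in *gun1G* and 721, 698 and 785 in Col-0. *gun1W* stood below the other groups and *gun1M* below Col-0, with *gun1W* at −1.25 ± 0.17 (SE, adjusted p = 0.00041) against Col-0 and −1.504 ± 0.17 (SE, adjusted p = 0.00031) against *gun1G*. *PSAN* (AT5G64040), for a lumenal subunit, had 202, 179 and 169 scaled TPM in *gun1W*, 279, 193 and 315 in *gun1M*, 397, 489 and 423 in *gun1G* and 431, 428 and 562 in Col-0. *gun1W* and *gun1M* were below Col-0 in every library, at −1.36 ± 0.19 (SE, adjusted p = 0.00052) and −0.87 ± 0.19 (SE, adjusted p = 0.0072). *PSAG* (AT1G55670), for a membrane subunit at the antenna side, had 443, 539 and 394 scaled TPM in *gun1W*, 502, 485 and 713 in *gun1M*, 647, 793 and 838 in *gun1G* and 1263, 1199 and 908 in Col-0. Here, as in *PSAD1*, also the green mutants lay below Col-0 in every library, at −0.56 ± 0.20 (SE, adjusted p = 0.1), which did not pass the test, whereas *gun1W* (−1.29, adjusted p = 0.00094) and *gun1M* (−0.99, adjusted p = 0.0047) did. *PSAF* (AT1G31330), for the subunit that docks plastocyanin, had 379.8, 445 and 554 scaled TPM in *gun1W*, 935, 989 and 716 in *gun1M*, 1309, 998 and 1022 in *gun1G* and 1018, 1109 and 962 in Col-0. *gun1W* lay below all other groups, at −1.18 ± 0.19 (SE, adjusted p = 0.001), and *gun1M* and *gun1G* overlapped Col-0. The remaining PSI genes were *PSAK* (AT1G30380), for a peripheral antenna-side subunit, *PSAL* (AT4G12800), for a subunit of the state transition domain, and *PSAP* (AT2G46820), for a thylakoid curvature protein. *PSAK*, *PSAL* and *PSAP* had *gun1W* means of 246, 313 and 253 scaled TPM, against 474, 608 and 334 in Col-0, and *PSAP* was the other gene of PSI that missed the adjusted p, at −0.41 ± 0.15 (SE, adjusted p = 0.069).

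**Figure D3:**
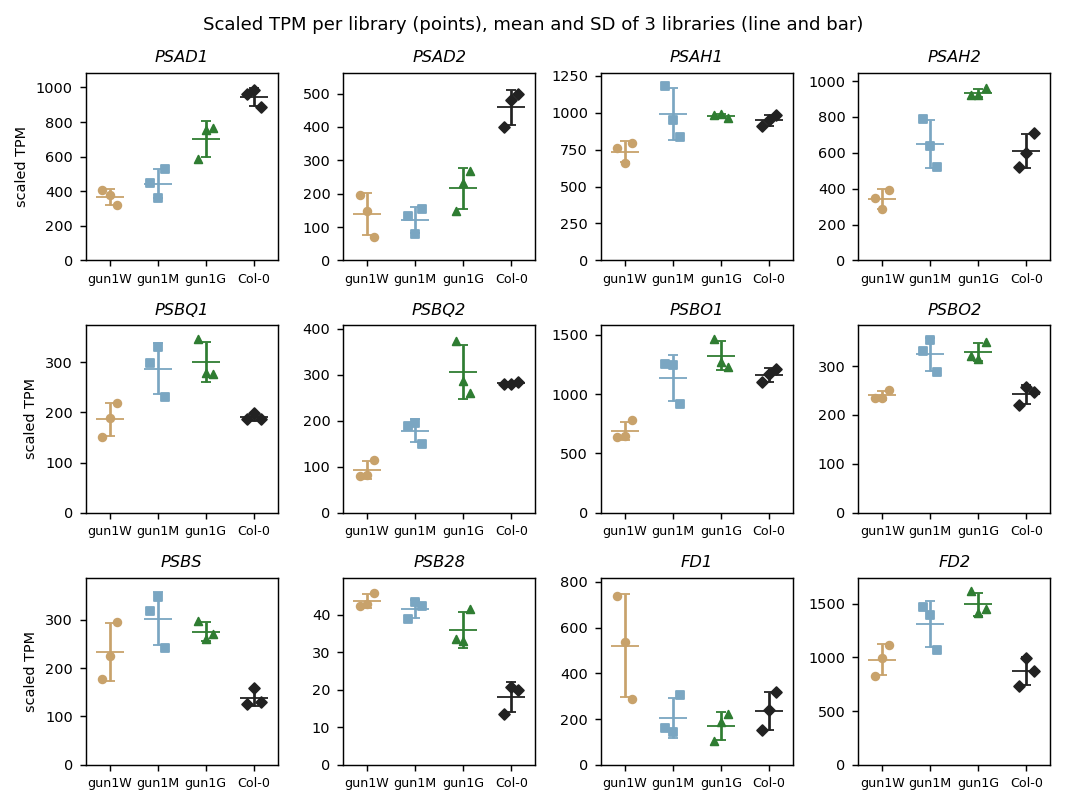
Scaled TPM in every library for 12 members, with the mean (line) and SD (bar) of 3 libraries, in the order *gun1W*, *gun1M*, *gun1G*, Col-0. Within the *PSBQ* pair *PSBQ2* in *gun1W* lies below all other groups, and *PSBQ1* in *gun1W* below the other mutants but not below Col-0; *PSBS* and *PSB28* are above Col-0 in all mutant libraries, and *FD1* spreads from 288 to 738 in *gun1W*.

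Of 13 tested PSII genes, 5 were lower (12.5% of all gene models) and 2 higher (15.1% of all, about the share of these 2) in *gun1W* at an adjusted p under 0.05. The median was −0.60 and the range −1.62 to 1.25, and 8 of the 13 turned from lower to higher in TPM as deposited. In *gun1M*, 4 were lower (13.6% of all) and 4 higher (15.4% of all), and in *gun1G* 3 were higher (5.75% of all). The oxygen-evolving complex is held by the lumenal proteins PSBO, PSBP and PSBQ. *PSBP1* (AT1G06680) had 254, 270.05 and 243 scaled TPM in *gun1W*, 473, 449 and 465 in *gun1M*, 780.3, 679.6 and 703 in *gun1G* and 684, 659 and 711 in Col-0. It fell in steps with color, by a log2 fold change of −1.42 ± 0.12 (SE, adjusted p = 1.8e-05) in *gun1W* and −0.57 ± 0.12 (SE, adjusted p = 0.006) in *gun1M*, while *gun1G* overlapped Col-0. It was the only member that passed the test between *gun1W* and *gun1M*, at −0.85 ± 0.12 (SE, adjusted p = 0.016). *PSBQ2* (AT4G05180) had 79.8, 81.3 and 114 scaled TPM in *gun1W*, 189, 195 and 149 in *gun1M*, 373, 286 and 259.8 in *gun1G* and 279, 279.7 and 285 in Col-0. *gun1W* was below *gun1M* and *gun1M* below Col-0 in every library, and the changes were −1.62 ± 0.18 (SE, adjusted p = 0.00012) in *gun1W* and −0.67 ± 0.18 (SE, adjusted p = 0.019) in *gun1M*. The call in *gun1M* did not hold on leaving out Col-0 replicate 1 (−0.68) or 3 (−0.66).

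*PSBQ1* (AT4G21280), the other PSBQ gene, had 151, 189 and 218 scaled TPM in *gun1W*, 299, 332 and 231 in *gun1M*, 346, 279 and 277 in *gun1G* and 187, 199 and 186 in Col-0. Within the mutant it was lower in *gun1W* than in *gun1G*, at −0.70 ± 0.18 (SE, adjusted p = 0.024), as *PSBQ2* was, at −1.73 ± 0.18 (SE, adjusted p = 0.00019). Unlike in *PSBQ2*, *gun1W* overlapped Col-0, at −0.05 ± 0.18 (SE, adjusted p = 0.87), and *gun1M* and *gun1G* were above Col-0 in every library, at 0.58 ± 0.18 (SE, adjusted p = 0.03) and 0.65 ± 0.18 (SE, adjusted p = 0.041). Neither call held without every library. That in *gun1M* did not hold on leaving out any 1 of the Col-0 replicates or *gun1M* replicate 1 or 2 (0.47 to 0.61), and that in *gun1G* without any 1 of the Col-0 or *gun1G* replicates or *gun1W* replicate 2 (0.55 to 0.71). *PSBO1* (AT5G66570), which encodes most of the manganese-stabilizing protein, had 639, 646 and 779 scaled TPM in *gun1W*, 1252, 1247 and 915 in *gun1M*, 1462, 1275 and 1233 in *gun1G* and 1102, 1169 and 1213 in Col-0. *gun1W* was below all others, at −0.76 ± 0.16 (SE, adjusted p = 0.0057). *PSBO2* (AT3G50820) had 234, 236 and 251 scaled TPM in *gun1W*, 331, 354 and 288 in *gun1M*, 319.99, 315 and 350.1 in *gun1G* and 221, 258 and 248 in Col-0. *gun1W* overlapped Col-0, at −0.01 ± 0.13 (SE, adjusted p = 0.96), and the *gun1M* and *gun1G* libraries lay above Col-0, at 0.42 ± 0.13 (SE, adjusted p = 0.031) and 0.44 ± 0.13 (SE, adjusted p = 0.055). The call in *gun1M* did not hold on leaving out Col-0 replicate 1 or 3 or *gun1M* replicate 1 or 2 (0.35 to 0.44).

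*PSBS* (AT1G44575), for the protein that switches on thermal dissipation in strong light, had 178, 224 and 296 scaled TPM in *gun1W*, 318, 347 and 241 in *gun1M*, 297, 260.05 and 270.3 in *gun1G* and 126, 159.8 and 130.4 in Col-0. Every mutant library was above every Col-0 library, also in white plants. The changes were 0.72 ± 0.20 (SE, adjusted p = 0.02) in *gun1W*, 1.11 ± 0.20 (SE, adjusted p = 0.0024) in *gun1M* and 0.99 ± 0.20 (SE, adjusted p = 0.013) in *gun1G*. The call in *gun1W* did not hold on leaving out Col-0 replicate 1 (0.65) or 3 (0.68) or *gun1W* replicate 2 (0.73) or 3 (0.53), and that in *gun1G* without Col-0 replicate 1 (0.93) or *gun1G* replicate 1 (0.94). *PSB28* (AT4G28660), known for a role in PSII assembly, had 42.3, 42.9 and 45.8 scaled TPM in *gun1W*, 38.9, 43.3 and 42.3 in *gun1M*, 33.4, 33.1 and 41.5 in *gun1G* and 13.5, 20.6 and 20.0 in Col-0. It was the other gene with all 9 mutant libraries above Col-0, at 1.25 ± 0.16 (SE, adjusted p = 0.0003), 1.18 ± 0.16 (SE, adjusted p = 0.0006) and 0.97 ± 0.16 (SE, adjusted p = 0.0058) in *gun1W*, *gun1M* and *gun1G*. *PSBR* (AT1G79040), for a subunit that helps to bind PSBP, had 903, 837 and 681 scaled TPM in *gun1W*, 788, 617 and 1141 in *gun1M*, 793, 1286 and 1204 in *gun1G* and 1746, 1727 and 1805 in Col-0. All mutant libraries were below Col-0, and *gun1W* (−1.13, adjusted p = 0.0052) and *gun1M* (−1.10, adjusted p = 0.0066) passed the test.

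*PSBY* (AT1G67740), for a small membrane subunit, had 980.02, 808 and 581 scaled TPM in *gun1W*, 963, 811 and 1088 in *gun1M*, 1075, 1465 and 1543 in *gun1G* and 1303, 1541 and 1804 in Col-0. *gun1W* lay below Col-0, at −0.99 ± 0.22 (SE, adjusted p = 0.0075), and *gun1M* also, at −0.70 ± 0.22 (SE, adjusted p = 0.036). The call in *gun1M* did not hold on leaving out Col-0 replicate 2 (−0.69) or 3 (−0.58) or *gun1M* replicate 1 (−0.71) or 2 (−0.58). *PSBTN* (AT3G21055), for a short lumenal protein, was the most abundant member and, with a residual SD of 0.67 on the log2 scale, the most variable (the median residual SD was 0.22 over the 39 members and 0.26 over all tested gene models). It ranged from 1547 to 3556 in *gun1W*, from 1081 to 3173 in *gun1M*, from 1480.3 to 4451 in *gun1G* and from 3645 to 4010.0 in Col-0, so that *gun1W* and *gun1M* lay below Col-0 without overlap, but no comparison passed, with −0.69 ± 0.47 (SE, adjusted p = 0.29) in *gun1W*. *PSBW* (AT2G30570) and *PSBX* (AT2G06520), for small membrane subunits, and *PSB27* (AT1G03600), known for PSII assembly, did not pass the test against Col-0 in any group, with log2 fold changes from −0.60 to −0.09 in *gun1W* and from 0.44 to 0.49 in *gun1G*.

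Between the photosystems, *PETC* (AT4G03280) encodes the Rieske iron-sulfur protein, the only *b6f* subunit in the set, and had 261, 257 and 259.8 scaled TPM in *gun1W*, 431, 413 and 343 in *gun1M*, 455, 439.7 and 425 in *gun1G* and 332, 345 and 413 in Col-0. *gun1W* was below all other groups, at −0.48 ± 0.14 (SE, adjusted p = 0.023), a call that did not hold on leaving out Col-0 replicate 3 (−0.38) or *gun1W* replicate 2 or 3 (−0.47 and −0.48). Plastocyanin comes mainly from *PETE2* (AT1G20340), which had 656, 613 and 806 scaled TPM in *gun1W*, 1547, 1337 and 945 in *gun1M*, 1777, 1703 and 1771 in *gun1G* and 1160.3, 1319 and 1353 in Col-0. *gun1W* was below and *gun1G* above every Col-0 library, at −0.89 ± 0.19 (SE, adjusted p = 0.0052) and 0.46 ± 0.19 (SE, adjusted p = 0.14), of which *gun1W* passed the test. *PETE1* (AT1G76100) had 23.8, 25.5 and 21.8 scaled TPM in *gun1W*, 25.0, 28.3 and 23.3 in *gun1M*, 23.9, 36.3 and 41.0 in *gun1G* and 24.5, 26.4 and 26.3 in Col-0. The low paralogue did not differ in *gun1W*, at −0.11 ± 0.18 (SE, adjusted p = 0.67), beyond its spread.

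Ferredoxin, which takes electrons from PSI, has a major and a minor leaf gene. *FD2* (AT1G60950), for the major leaf ferredoxin, had 831, 995 and 1113 scaled TPM in *gun1W*, 1468, 1395 and 1069.7 in *gun1M*, 1616, 1413 and 1451 in *gun1G* and 736, 995 and 878 in Col-0. *gun1W* overlapped Col-0, and *gun1M* and *gun1G* were above it in every library. The changes were 0.17 ± 0.18 (SE, adjusted p = 0.51) in *gun1W*, 0.59 ± 0.18 (SE, adjusted p = 0.029) in *gun1M* and 0.79 ± 0.18 (SE, adjusted p = 0.021) in *gun1G*. Within the mutant it was lower in *gun1W* than in *gun1G*, at −0.62 ± 0.18 (SE, adjusted p = 0.043), without overlap. The call in *gun1M* did not hold on leaving out Col-0 replicate 1 or 3 or *gun1M* replicate 1 or 2 (0.47 to 0.60), and that in *gun1G* without the same Col-0 replicates or *gun1G* replicate 1 or 3 (0.67 to 0.81). *FD1* (AT1G10960), for the minor leaf ferredoxin, had 738, 538 and 288 scaled TPM in *gun1W*, 162, 144 and 306 in *gun1M*, 102, 187 and 223 in *gun1G* and 153, 238 and 317 in Col-0. The *gun1W* libraries spread widely and *gun1W* replicate 3 overlapped Col-0, so that 1.099 ± 0.42 (SE, adjusted p = 0.069) against Col-0 did not pass, whereas 1.58 ± 0.42 (SE, adjusted p = 0.028) against *gun1G* did. Without *gun1W* replicate 3 the change against Col-0 was 1.48 and passed. FNR, which passes the electrons to NADP, has a pair of leaf genes. *LFNR1* (AT5G66190) had 126, 82.1 and 85.3 scaled TPM in *gun1W*, 141, 103 and 138 in *gun1M*, 167, 205 and 200.2 in *gun1G* and 108, 119 and 184 in Col-0, and *LFNR2* (AT1G20020) had 31.9, 28.0 and 38.7 scaled TPM in *gun1W*, 71.7, 55.2 and 53.2 in *gun1M*, 105, 84.2 and 87.6 in *gun1G* and 57.8, 60.1 and 85.5 in Col-0. *LFNR2* lay below Col-0 in every *gun1W* library, at −1.01 ± 0.19 (SE, adjusted p = 0.0027), and *LFNR1* overlapped, at −0.47 ± 0.23 (SE, adjusted p = 0.14).

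On the common scale the ATP synthase genes, whose 3 *gun1W* differences from Col-0 turned to higher when TPM was left unscaled, were lowest in white and highest in green mutants, and *ATPC1* (−1.40, adjusted p = 0.0012) and *ATPD* (−1.16, adjusted p = 0.00078) were lower in *gun1W* than in *gun1G* by at least 2-fold. *ATPC1* (AT4G04640), for the redox-regulated gamma subunit, had 87.7, 127 and 145 scaled TPM in *gun1W*, 253, 252 and 179.7 in *gun1M*, 363, 292 and 289 in *gun1G* and 162, 179.9 and 176 in Col-0. *gun1W* was below and *gun1G* above all Col-0 libraries, at −0.55 ± 0.20 (SE, adjusted p = 0.062) and 0.85 ± 0.20 (SE, adjusted p = 0.024), of which *gun1G* passed. The difference in *gun1W* passed without *gun1W* replicate 3 (−0.70) or *gun1M* replicate 3 (−0.55). The call in *gun1G* did not hold on leaving out any 1 of the Col-0 replicates or *gun1G* replicate 1 or 3 (0.75 to 0.91). *ATPD* (AT4G09650), for the delta subunit, had 68.2, 86.8 and 85.3 scaled TPM in *gun1W*, 134, 129 and 121 in *gun1M*, 171, 181 and 187 in *gun1G* and 102, 148 and 135 in Col-0, and *gun1W* was below and *gun1G* above Col-0 without overlap, with *gun1W* at −0.66 ± 0.16 (SE, adjusted p = 0.0092). *ATPG* (AT4G32260), for a stalk subunit, had 166, 179.9 and 179.9 scaled TPM in *gun1W*, 296, 265 and 265 in *gun1M*, 304, 281 and 284 in *gun1G* and 238, 246 and 226 in Col-0. Its groups were narrow, *gun1W* lay below and *gun1M* and *gun1G* above Col-0, and *gun1W* passed at −0.43 ± 0.12 (SE, adjusted p = 0.018), except on leaving out Col-0 replicate 1 (−0.43) or 2 (−0.41).

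The genes of cyclic flow were among the lowest members. *PGR5* (AT2G05620) had 18.7, 26.6 and 25.6 scaled TPM in *gun1W*, 23.7, 34.1 and 26.9 in *gun1M*, 27.0, 16.8 and 20.4 in *gun1G* and 21.4, 17.2 and 17.1 in Col-0, and no group passed the test, although all *gun1M* libraries lay above Col-0, at 0.57 ± 0.20 (SE, adjusted p = 0.054). *PGRL1A* (AT4G22890), for the partner that anchors PGR5, had 19.2, 21.0 and 21.8 scaled TPM in *gun1W*, 36.2, 33.1 and 31.7 in *gun1M*, 39.00, 33.2 and 32.9 in *gun1G* and 20.4, 19.2 and 29.6 in Col-0. *gun1M* and *gun1G* lay above Col-0 in every library, at 0.55 ± 0.16 (SE, adjusted p = 0.026) and 0.60 ± 0.16 (SE, adjusted p = 0.039). The call in *gun1M* did not hold on leaving out Col-0 replicate 1 or 2 or *gun1M* replicate 1 or 2 (0.44 to 0.56), and that in *gun1G* without the same Col-0 replicates, any 1 of the *gun1G* replicates or *gun1W* replicate 2 (0.49 to 0.65). *PGRL1B* (AT4G11960) had 3.45, 2.88 and 3.77 scaled TPM in *gun1W*, 5.51, 4.61 and 4.77 in *gun1M*, 4.92, 4.89 and 4.58 in *gun1G* and 6.22, 4.36 and 6.57 in Col-0. *gun1W* lay below Col-0, at −0.61 ± 0.16 (SE, adjusted p = 0.015), which did not hold on leaving out Col-0 replicate 1 (−0.55) or 3 (−0.51) or *gun1W* replicate 2 (−0.53).

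The share of a paralogue in the summed TPM of its pair does not depend on the scaling of libraries. In 7 of 10 pairs it differed between the 4 groups (exact permutation test with 15400 arrangements, whose smallest p is 6.5e-05, adjusted over the 10 pairs). The largest shift was within PSBQ. *PSBQ1* made up, of the TPM of its pair, 65.5, 69.9 and 65.6% in *gun1W*, 61.3, 62.9 and 60.9 in *gun1M*, 48.2, 49.4 and 51.6 in *gun1G* and 40.1, 41.6 and 39.5 in Col-0. The 4 groups did not overlap, with *gun1W* highest and Col-0 lowest (exact permutation test over 4 groups, p = 6.5e-05, adjusted over 10 pairs 0.00065, the smallest p that the test can give). The means were 67.0% ± 2.53 in *gun1W*, 61.7% ± 1.08 in *gun1M*, 49.7% ± 1.76 in *gun1G* and 40.4% ± 1.059 in Col-0 (SD, n = 3). *PSAH1* made up, of the TPM of its pair, 68.7, 69.6 and 66.8% in *gun1W*, 59.9, 59.8 and 61.4 in *gun1M*, 51.5, 51.8 and 50.2 in *gun1G* and 63.5, 61.4 and 58.1 in Col-0. It was highest in *gun1W* and lowest in *gun1G*, and *gun1M* overlapped Col-0 (exact permutation test over 4 groups, p = 0.00052, adjusted over 10 pairs 0.0024). *PSBO1* made up, of the TPM of its pair, 73.2, 73.3 and 75.7% in *gun1W*, 79.1, 77.9 and 76.1 in *gun1M*, 82.0, 80.2 and 77.9 in *gun1G* and 83.3, 81.9 and 83.0 in Col-0. The share was lowest in *gun1W*, and *gun1W* and *gun1M* were below Col-0 (exact permutation test over 4 groups, p = 0.00071, adjusted over 10 pairs 0.0024). *PGRL1A* made up, of the TPM of its pair, 84.8, 87.9 and 85.3% in *gun1W*, 86.8, 87.8 and 86.9 in *gun1M*, 88.8, 87.2 and 87.8 in *gun1G* and 76.6, 81.5 and 81.8 in Col-0. All 9 mutant libraries were above Col-0, and the mutant groups overlapped each other (exact permutation test over 4 groups, p = 0.004, adjusted over 10 pairs 0.0099).

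The other 3 pairs that passed had smaller or less even shifts. *PETE2* averaged 96.6% ± 0.693 in *gun1W*, 98.0% ± 0.413 in *gun1M*, 98.1% ± 0.496 in *gun1G* and 98.0% ± 0.0810 in Col-0 of its pair (SD, n = 3, exact permutation test over 4 groups, p = 0.018, adjusted over 10 pairs 0.037). *PSAE1* averaged 83.8% ± 1.83 in *gun1W*, 87.1% ± 1.38 in *gun1M*, 88.0% ± 0.391 in *gun1G* and 87.3% ± 0.503 in Col-0 (SD, n = 3, exact permutation test over 4 groups, p = 0.027, adjusted over 10 pairs 0.039). In both pairs *gun1W* lay below every Col-0 library, and *gun1M* overlapped Col-0. *FD2* made up, of the TPM of its pair, 53.0, 64.9 and 79.5% in *gun1W*, 90.1, 90.6 and 77.7 in *gun1M*, 94.0, 88.3 and 86.7 in *gun1G* and 82.8, 80.7 and 73.5 in Col-0. The *gun1W* libraries ranged widely and overlapped Col-0, whereas *gun1G* was above it (exact permutation test over 4 groups, p = 0.027, adjusted over 10 pairs 0.039). Leaving out 1 library lost the call of *FD2* for each library except *gun1W* replicate 3, with the difference of *gun1W* from Col-0 between −20.1 and −6.81 points, that of *PSAE1* for each except *gun1W* replicate 2 and *gun1M* replicate 1 (−4.52 to −2.73 points) and that of *PETE2* for each except *gun1W* replicates 1 and 3 and *gun1M* replicate 1 (−1.77 to −1.09 points). The shares in the *PSAD*, *LFNR* and *PSBP* pairs did not pass. *PSAD1* averaged 73.6% ± 7.40 in *gun1W*, 78.8% ± 2.78 in *gun1M*, 76.8% ± 2.80 in *gun1G* and 67.3% ± 3.36 in Col-0 (SD, n = 3, exact permutation test over 4 groups, p = 0.068, adjusted over 10 pairs 0.085), and without *gun1W* replicate 3 its adjusted p was 0.014, with *gun1W* 2.24 points above Col-0. *LFNR1* averaged 74.4% ± 5.48 in *gun1W*, 67.8% ± 3.88 in *gun1M*, 67.3% ± 5.12 in *gun1G* and 66.6% ± 1.49 in Col-0 (SD, n = 3, exact permutation test over 4 groups, p = 0.17, adjusted over 10 pairs 0.17). *PSBP1* held 99.7% to 99.99% of its pair over the 12 libraries (exact permutation test over 4 groups, p = 0.084, adjusted over 10 pairs 0.093), and without *gun1W* replicate 2 its adjusted p was 0.036, at a difference of −0.16 points. Between single groups, 3 libraries against 3 cannot give an exact p below 0.10. Coding sequences of the pairs are 75.0% to 88.0% identical, with identical runs of at most 17 to 38 bases, so short reads in such runs could be assigned to either paralogue.

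**Figure D4:**
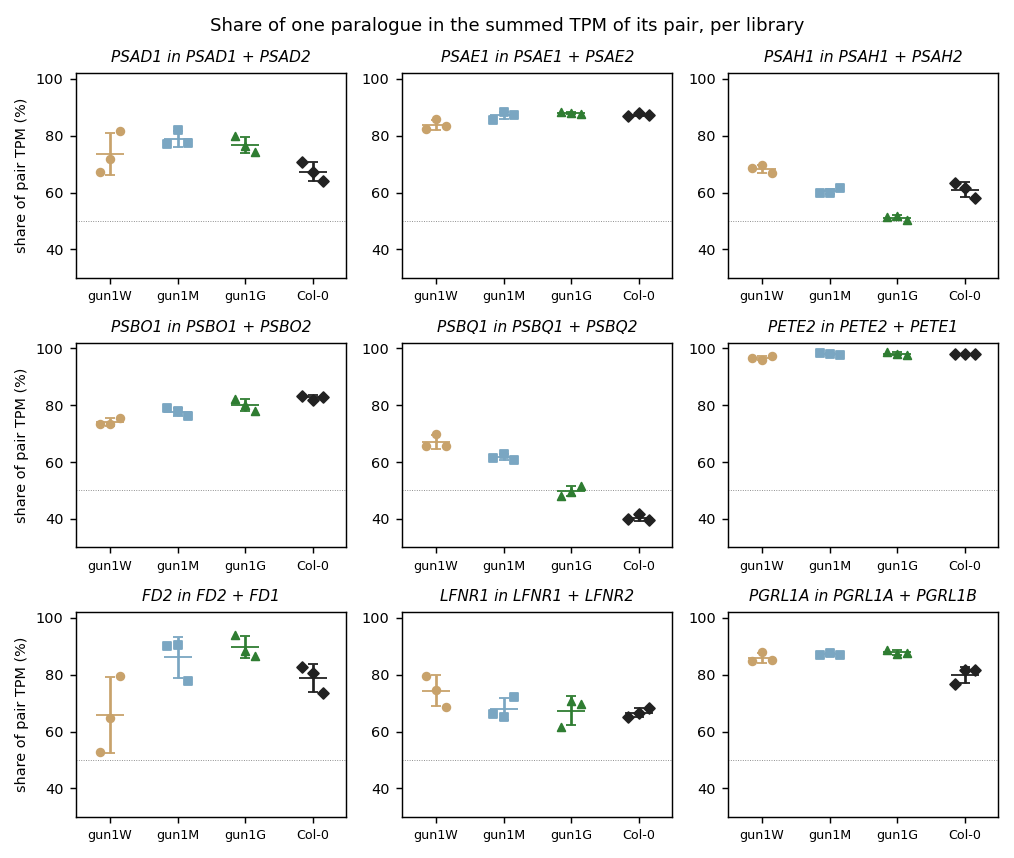
Share of the named paralogue in the summed TPM of its pair, in percent, for 9 pairs, 1 point per library with the mean and SD of 3 libraries; the dotted line marks equal shares and the axis starts at 30%. *PSBQ1* lies at 65.5% to 69.9% in *gun1W* and at 39.5% to 41.6% in Col-0, and *PSAH1* is highest in *gun1W* and lowest in *gun1G*.

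The balance among complexes differed too. Of the summed TPM of the 40 members, ferredoxin took 10.2, 10.9 and 10.2% in *gun1W*, 7.72, 8.40 and 7.26 in *gun1M*, 7.13, 6.09 and 6.38 in *gun1G* and 3.89, 5.09 and 4.78 in Col-0. The 4 groups did not overlap, with white plants highest and Col-0 lowest. PSI took 30.6, 32.9 and 36.5% in *gun1W*, 39.6, 39.8 and 36.4 in *gun1M*, 43.2, 37.7 and 37.3 in *gun1G* and 41.5, 39.7 and 39.5 in Col-0. All *gun1W* libraries were below Col-0 there, and *gun1M* and *gun1G* overlapped it. Because *PSBTN* is abundant and varied most, the shares were also taken without it, a choice made after its spread was seen. PSI then averaged 40.3% ± 0.790 in *gun1W*, 43.3% ± 0.885 in *gun1M*, 45.4% ± 0.606 in *gun1G* and 48.0% ± 1.28 in Col-0 (SD, n = 3), with no overlap between *gun1W* and any other group, and ferredoxin averaged 12.7% ± 0.973 in *gun1W*, 8.74% ± 0.176 in *gun1M*, 7.53% ± 0.178 in *gun1G* and 5.46% ± 0.741 in Col-0 (SD, n = 3). PSII averaged 34.2% ± 0.637 in *gun1W*, 33.1% ± 1.16 in *gun1M*, 31.9% ± 0.617 in *gun1G* and 34.4% ± 0.121 in Col-0 (SD, n = 3), and *gun1W* overlapped Col-0. All *gun1M* and *gun1G* libraries lay below Col-0 in this PSII share, but with *PSBTN* in the sum *gun1M* overlapped Col-0. The ATP synthase averaged 3.16% ± 0.372 in *gun1W*, 3.64% ± 0.0937 in *gun1M*, 3.55% ± 0.137 in *gun1G* and 2.67% ± 0.135 in Col-0 (SD, n = 3), and all libraries of *gun1M* and *gun1G* were above Col-0. No p is given for these sums over chosen genes.

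**Figure D5:**
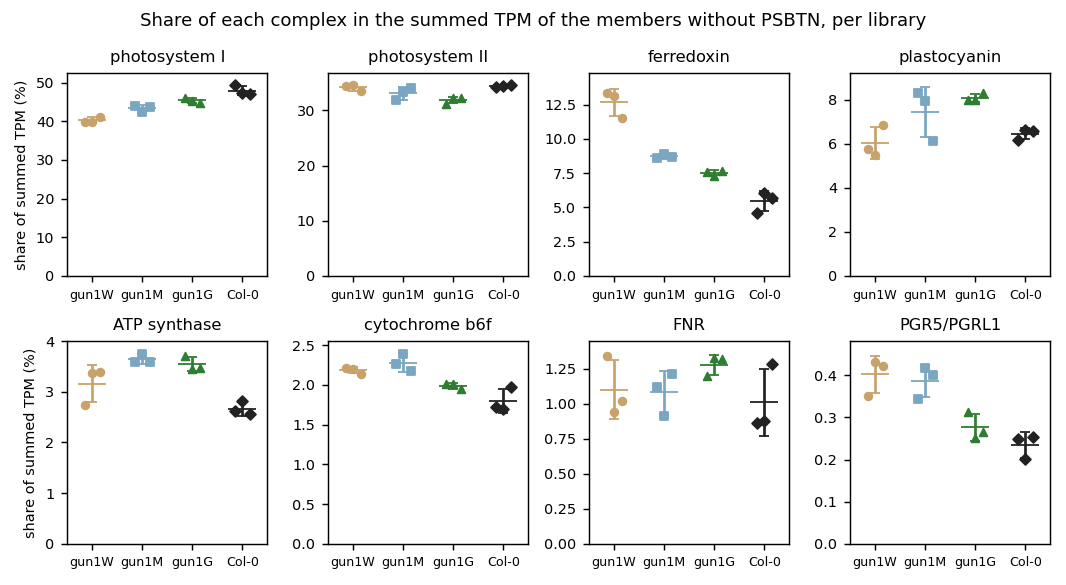
Share of each complex in the summed TPM of the members without *PSBTN*, in percent, 1 point per library with the mean and SD of 3 libraries, each axis starting at 0. Ferredoxin averages 12.7% in *gun1W* and 5.46% in Col-0, and PSI 40.3% in *gun1W* and 48.0% in Col-0.

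Shares of the main transcript within a gene were also taken, and 2 genes are given here that were chosen after the values were seen. In *PETE2*, with 2 annotated transcripts, AT1G20340.2 held, of the TPM of the gene, 82.4, 82.4 and 82.0% in *gun1W*, 85.3, 92.2 and 83.1 in *gun1M*, 87.0, 85.5 and 86.7 in *gun1G* and 73.5, 75.3 and 75.9 in Col-0. All 9 mutant libraries lay above Col-0. In *LFNR2*, with 33 transcripts, the main transcript AT1G20020.16 held 39.3, 55.4 and 49.8% in *gun1W*, 48.1, 53.0 and 60.4 in *gun1M*, 69.7, 61.9 and 59.8 in *gun1G* and 57.1, 55.6 and 62.6 in Col-0, and *gun1W* lay below Col-0, by a narrow gap. Transcript values of such genes are estimates, since their transcripts share most of their sequence. They were not tested.

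Other nuclear genes of the same pathway were counted in lists set by function. The shares of all gene models given above apply to them too (in *gun1W* 4.31% lower and 7.54% higher by at least 2-fold, 12.5% and 15.1% without the fold limit). Without the fold limit, *gun1M* had 1 lower and 6 higher of 17 NDH subunits, 1 and 5 of 20 assembly factors, 1 and 3 of 8 minor isoforms and 0 and 2 of 10 regulators, against 13.6% and 15.4% of all gene models. In *gun1G* there were 4 higher NDH subunits and 2 higher assembly factors, against 5.75% of all, and no other gene of these lists passed limma's test. At an unadjusted p under 0.05, 1 NDH subunit was lower and 7 were higher. Also higher at that threshold were 6 assembly factors, 1 minor isoform and 1 regulator. Of all 18373 gene models, 2313 were lower and 2586 higher at that threshold. Of 17 nuclear subunits of the NDH complex, which carries the other route of cyclic flow, *gun1W* had 1 lower, *CRR31* at −1.26 ± 0.29 (SE, adjusted p = 0.0083), and 1 higher, *NDF2* at 1.15 ± 0.22 (SE, adjusted p = 0.0029), by at least 2-fold, with a median of −0.12. *NDF2* was also higher in *gun1G*, at 1.04 ± 0.22 (SE, adjusted p = 0.016). Of 20 assembly factors, limma called 0 in either direction by 2-fold in *gun1W*. Without the fold limit, 3 were lower (12.5% of all) and 1 higher (15.1% of all). The counts at an unadjusted p under 0.05 were 4 and 2, against 3455 and 3869 of all 18373 gene models. *CCB1*, for heme attachment in cytochrome *b6f*, was the higher one, at 0.93 ± 0.22 (SE, adjusted p = 0.009), and *CCDA*, for a thiol transporter in cytochrome assembly, was lower, at −0.71 ± 0.16 (SE, adjusted p = 0.007). Of 8 minor isoforms, 2 were higher in *gun1W*. These were *RFNR1*, at 1.47 ± 0.28 (SE, adjusted p = 0.0029), and *FD3*, at 1.31 ± 0.34 (SE, adjusted p = 0.015), known as the FNR and the ferredoxin of non-green tissue. Their means were 14.8, 11.96 and 6.41 scaled TPM for *RFNR1* in *gun1W*, *gun1M* and *gun1G*, against 4.57 in Col-0, and 82.2, 71.3 and 39.4 for *FD3*, against 31.2 in Col-0. Both are known from roots. The 5 root markers (*CASP1*, *PHT1;1*, *PIN2*, *COBL9* and *NRT2.1*) summed to 92.4 to 135 in *gun1W*, 80.0 to 110.1 in *gun1M*, 65.7 to 75.3 in *gun1G* and 72.3 to 98.3 in Col-0, with *NRT2.1* below 0.5 in every library. Taken singly, each root marker in *gun1W* overlapped Col-0. *PHT1;1* ranged higher (16.6 to 50.7 against 12.9 to 16.8) and *COBL9* lower (4.96 to 6.86 against 6.52 to 9.57). The part of root tissue in the levels of *RFNR1* and *FD3* was not tested. Of 10 regulators, the kinase gene *STN8* was higher in *gun1W* by 2-fold, at 1.02 ± 0.27 (SE, adjusted p = 0.017), and *TROL*, which tethers FNR, was lower without the fold limit, at −0.58 ± 0.16 (SE, adjusted p = 0.02).

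The plastid-encoded subunits of the same complexes were lower in *gun1W* by larger factors, on the same scale and as a description. Over subunits above 0 in every library, the median log2 fold change in *gun1W* was −2.93 for 3 of 5 PSI subunits, −3.32 for 12 of 15 PSII subunits, −2.18 for 4 of 6 *b6f* subunits and −2.50 for 6 of 6 ATP synthase subunits. The subunits left out had a TPM of 0 in 1 or more libraries. Among them *psbD* was at 0 in 11 libraries, also in Col-0, so these values miss some plastid transcripts. All 3 PSI, all 12 PSII and all 6 ATP synthase subunits used lay below Col-0 in every *gun1W* library, and 3 of 4 did in *b6f*. In *gun1M* the medians were −0.43, −0.98, −0.03 and −0.54 in the same order, and in *gun1G* 0.11, −0.36, 0.26 and −0.02. For PSI, *psaA*, for a reaction center protein, averaged 1425 scaled TPM in *gun1W*, 8380 in *gun1M*, 11983 in *gun1G* and 11091 in Col-0.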

How the data were processed

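The deposited table holds TPM per transcript (168507 transcripts) for 12 libraries made from rRNA-depleted, stranded RNA of 4-day-old plants. The authors trimmed reads with Trimmomatic, checked them with FastQC, mapped them with STAR to TAIR10 and made the TPM values with Salmon on the AtRTD3-QUASI transcripts. Versions are not given in the sources used here. TPM is relative within a library (each sums to 1000000), so read depth, and with it the counting error, is unknown. Transcripts were summed per gene model, and libraries were scaled by the median ratio over 12490 nuclear genes that reached a TPM of 1 in every library. The 18373 gene models not encoded in the plastid that reached a TPM of 1 in 3 or more libraries were fitted on log2(scaled TPM + 1) with limma 3.58.1 in R 4.3.3, all 4 groups in 1 fit with a mean-variance trend, and p-values were adjusted by Benjamini-Hochberg over all of them. Fold changes are on this log2 scale and understate the change of low genes. A call needed an adjusted p under 0.05 and a 2-fold change. Paralogue shares were compared over the 4 groups by an exact permutation test. The tests were first run on simulated data.

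The members, the gene lists and the tests were chosen with earlier results of these data known. Per-library values are given for all paralogue pairs, *PETC*, *PGR5*, the ATP synthase genes and, for each photosystem, the 4 other genes with the smallest adjusted p in *gun1W*. Of the pathway lists, genes are named from the 4 with the smallest adjusted p in *gun1W*. *PYG7* and *PSA3* could not be matched by symbol and *FD4* was too low to test. Gene symbols and promoters came from RefSeq (TAIR10.1), read with Biopython 1.88. The column headings of the deposited table call the replicates biological, but whether they came from separate cultures is not given in the sources used here, so p-values measure the spread between these samples, which may be technical. Of 18 same-numbered pairs of libraries, 4 correlated above 0.1 (−0.29 to 0.31), and the main tests did not pair them. Pairs with different numbers were not compared, so whether samples of the same number were handled together is not known. The alternatives were 2 other pseudocounts (0.1 and 5), no filter and a TPM of at least 5, other scalings (TPM as deposited, equal nuclear totals, quantiles), AT3G06365 as a covariate by its share, joined gene models added to the members they contain, a log2 ratio for paralogues, only the groups compared, the replicate block, and each replicate left out. A nuclear total without AT3G06365 and a sum without *PSBTN* were added after seeing the data.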

Additional observations from a re-analysis of the deposited data

How the results depend on the processing

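Scaling decided most. In TPM as deposited, the counts called lower and higher by at least 2-fold were 0 and 6 in *gun1W* against Col-0 (median 0.37), 0 and 3 between *gun1W* and *gun1G*, 1 lower (median 0.22) in *gun1M* and 2 higher in *gun1G*, and 1 gene was higher in *gun1W* than in *gun1M*. Among all gene models, 2.88% were lower in *gun1M* (median 0.19) and 2.41% higher in *gun1G*, and the other shares are given above. With equal nuclear totals the counts were 7 and 2 in *gun1W* (median −0.41), 1 lower in *gun1M* (median 0.18) and 4 higher in *gun1G* (median 0.52). Of all gene models, 2.78% were lower and 10.4% higher in *gun1W*, 3.55% lower in *gun1M* and 4.37% higher in *gun1G*. The medians of all gene models were then 0.19 in *gun1W*, 0.17 in *gun1M* and 0.17 in *gun1G*. Quantile normalization gave a median of −0.73 in *gun1W*, 5 lower in *gun1M*, 1 higher in *gun1G* and 1 lower in *gun1W* than in *gun1M*. With AT3G06365 and its share as a covariate there were 1 higher gene in *gun1M*, 1 higher in *gun1G* (median 0.16), 0 higher in *gun1W* than in *gun1G* and 1 lower in *gun1M* than in *gun1G*. Adding 0.1 before the log gave 1 higher in *gun1G*, no filter gave 0 higher in *gun1W* than in *gun1G*, and fitting only the groups compared gave 1 lower in *gun1G*. For all of these the cause was not tested, except that TPM as deposited is a share of a total that holds the plastid transcripts. In that unit these genes turned from lower to higher in *gun1W* (log2 fold change): *PSAE2* 0.40, *PSAH1* 0.68, *PSAH2* 0.21, *PSAK* 0.10, *PSAL* 0.093, *PSAP* 0.64, *PSBO1* 0.29, *PSBO2* 1.03, *PSBQ1* 0.99, *PSBW* 0.44, *PSBX* 0.78, *PSBY* 0.054, *PSBTN* 0.35, *PSB27* 0.95, *PETC* 0.56, *PETE1* 0.90, *PETE2* 0.15, *LFNR1* 0.56, *LFNR2* 0.012, *ATPC1* 0.49, *ATPD* 0.37, *ATPG* 0.61, *PGRL1A* 0.88 and *PGRL1B* 0.24. Of all single-gene values under the alternatives, 2519 kept direction and side of the threshold, 108 lost and 43 gained a call, and 21 reversed with a call in at least 1 of the settings.

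Leaving out each replicate in turn gave 10 to 14 lower and 1 to 2 higher in *gun1W* (median −0.70 to −0.61), 1 to 5 and 1 to 2 in *gun1M*, 0 to 1 and 0 to 2 in *gun1G*, 13 to 15 and 0 to 1 between *gun1W* and *gun1G*, and 0 to 4 lower in *gun1W* than in *gun1M*. The difference of *gun1W* from Col-0 in the paralogue share was 2.24 to 9.47 points for *PSAD1*, −4.52 to −2.73 for *PSAE1*, −1.77 to −1.09 for *PETE2*, −20.1 to −6.81 for *FD2* and −0.158 to −0.0671 for *PSBP1*, and the *PSBQ1*, *PSAH1*, *PSBO1* and *PGRL1A* shares kept their calls. As a log2 ratio of scaled TPM + 1, the *PSBP* pair passed (−1.37, adjusted p = 0.0012, exact permutation test). *PSBP2* lay at 0.10 to 0.75 scaled TPM, below the 1 added, so this ratio mostly repeats the change of *PSBP1* itself (−1.42). It does not show a shift between the paralogues. The replicate block lost the calls of *PSAE1* (−3.51 points, exact adjusted p = 0.08), *PETE2* (−1.40 points, 0.084), *FD2* (−13.2 points, 0.11) and *PGRL1A* (6.01 points, 0.052). Whether the replicate numbers pair the samples is not known, so these calls depend on that choice. The ferredoxin share was 5.86 points higher in *gun1W* than in Col-0, and 7.21 points without *PSBTN*. Unknown depth limits the precision of low genes such as *PSBP2* and *PGRL1B*.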
